A study of Schizosaccharomyces pombe with 6 samples.

Results

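The 10 genes described here code for the core of the Sty1 stress-activated MAP kinase pathway of fission yeast (Schizosaccharomyces pombe). They were chosen by name, as the entries of the deposited gene table whose common name is wis1, sty1, atf1, pcr1, pyp1, pyp2, wis4, win1, mcs4 or srk1, and all 10 were found among 6986 genes. Polyadenylated RNA was sequenced from 3 libraries of strain AS2300 (genotype h- duf89delta::hygR, a hygromycin resistance marker in place of duf89) and from 3 libraries of the wild-type strain JS 77. Both strains were grown to log phase in YES, a rich yeast extract medium, at 30 ºC, and no stress was applied in either group. Duf89 is a metal-dependent phosphatase of metabolite repair. According to the series text the wild-type samples came from an earlier series but were sequenced concurrently with the mutant, so genotype cannot be told apart from any difference in preparation. The labels call the deletion replicates biological and only number those of wild type, so the p-values measure the spread between these samples, which may be technical in wild type.

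The Sty1 pathway relays osmotic, oxidative, heat and nutrient stress to the nucleus through a chain of kinases. The MAP kinase kinase kinases Win1 and Wis4, which bind the response regulator Mcs4, activate the MAP kinase kinase Wis1, and Wis1 phosphorylates the MAP kinase Sty1. Active Sty1 acts on the bZIP transcription factor Atf1, which pairs with Pcr1, and on the kinase Srk1, while the tyrosine phosphatases Pyp1 and Pyp2 switch Sty1 off. The signal itself is carried by phosphorylation, which was not measured here, so every value below is an amount of mRNA. In a culture as a whole, fewer cells with a transcript and less transcript per cell cannot be told apart.

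Libraries held between 18244492 and 21572536 counts, and the 10 genes together took 33916 to 37463 of them in a library. Levels are given in CPM, counts relative to a library total that was scaled by the TMM method, and all 10 genes passed the filter on low counts. The locus of the deleted gene was not established here. RefSeq gives the name duf89 to SPCC1393.13, which the submitters give no common name. SPCC1393.13 had 229, 234 and 373 counts in the deletion libraries, against 808, 897 and 794 counts in the wild-type libraries. It was lower in each deletion library (log2 fold change -1.74), with counts remaining. Over all tested genes the lowest log2 fold change was -12.53, so another gene, not identified here, fell further. Whether that gene or SPCC1393.13 is the deleted one was not tested. The counts of SPCC1393.13 are therefore no check of the deletion. As a check of mating type, the M-cell pheromone gene mfm2 had 2398 to 4115 counts in the deletion and 2489 to 2886 counts in wild type, and the M-cell gene mam1 had 1942 to 2697 counts in the deletion and 1976 to 2150 counts in wild type. The P-cell gene map2 had 140 to 145 counts in the deletion and 179 to 250 counts in wild type, and fell (log2 fold change -0.72). The P-cell genes map1, a transcription factor, and map3, the M-factor receptor, did not pass the test (0.41 and -0.18). Neither did the M-cell pheromone genes mfm1, mfm2 and mfm3 (-0.09, 0.04 and -0.52), mam1 (-0.07), or mam2, the P-factor receptor (0.02). The entry mat1-Mc was at 0 in all 6 libraries, but 100.0% of its 50-mers occur elsewhere in the genome, so this 0 is no measure of its expression.

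The comparison of the deletion with wild type addresses which mRNAs differ between these strains. In the deletion 6 of the 10 genes fell, namely atf1, win1, pyp1, mcs4, sty1 and pcr1, and 1 gene, pyp2, rose. The remaining 3, wis1, wis4 and srk1, did not pass the test (edgeR quasi-likelihood test, Benjamini-Hochberg adjusted p below 0.05). Over all 6045 genes tested, 53.3% were called, 24.6% as lower and 28.8% as higher, so being called was common and the 7 of 10 genes must be read against that share. The median log2 fold change of the 10 genes was -0.19, and that of all tested genes was 0.00. Sizes were small, between -0.43 for atf1 and 0.23 for pyp2. The median absolute log2 fold change of all tested genes was 0.24, and that of the 10 genes was 0.20. In the deletion and wild type the libraries did not overlap for 6 genes with the deletion below and for 2 genes (pyp2 and wis4) with the deletion above. Over all tested genes the deletion lay below in this way for 30.4% and above for 32.9%, together 63.3%.

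**Figure D1:**
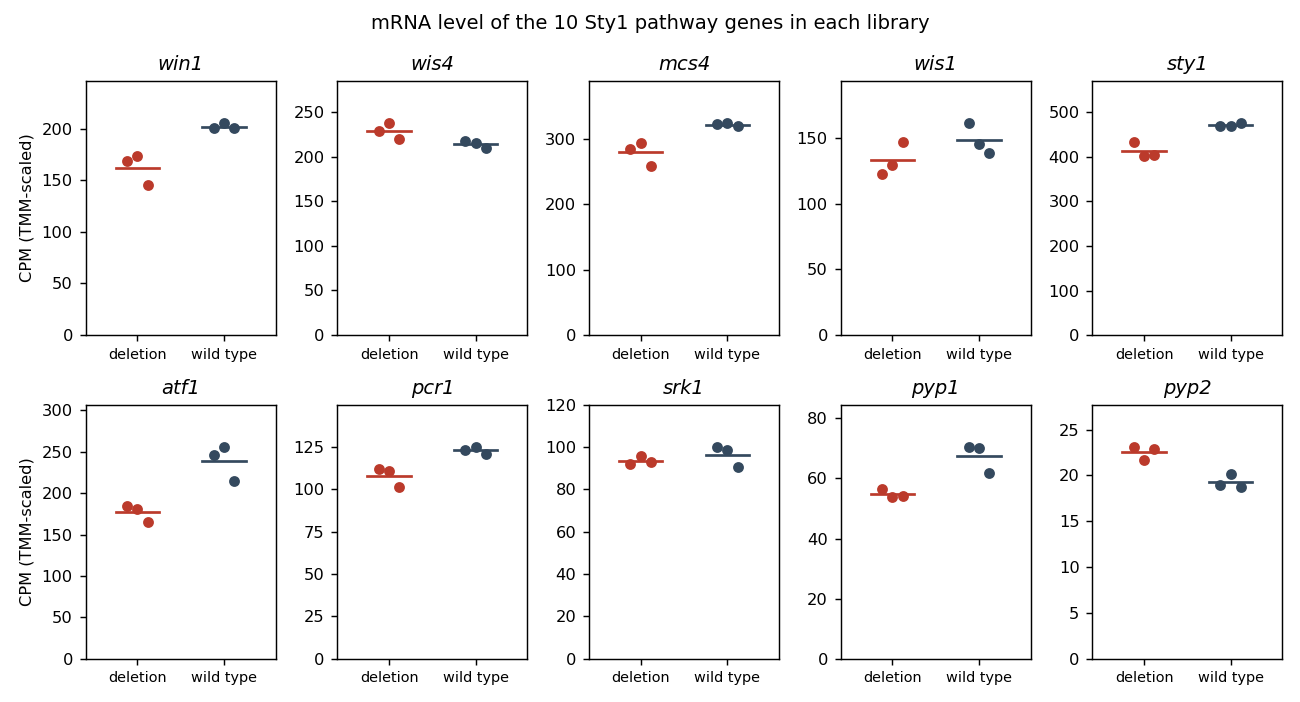
CPM (y axis, linear from 0, one scale per gene) of the 10 genes in each library, with the 3 deletion libraries on the left and the 3 wild-type libraries on the right of each panel; points are libraries and bars are means. The deletion libraries lie below the wild-type libraries for win1, mcs4, sty1, atf1, pcr1 and pyp1, lie above them for wis4 and pyp2, and overlap with them for wis1 and srk1.

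At the top of the chain the pair of MAP kinase kinase kinase genes did not move alike. The win1 mRNA measured 168.2, 173.4 and 145.2 CPM in the deletion libraries, against 200.4, 205.0 and 200.3 CPM in the wild-type libraries. Every deletion library was below every wild-type library, and deletion replicate 3 was the lowest. Expression of win1 fell by 19.6% (log2 fold change -0.32, SE 0.06, adjusted p = 0.0033), and its call held in each alternative run, with values from -0.38 to -0.22. The wis4 mRNA measured 229.1, 237.3 and 219.5 CPM in the deletion libraries, against 217.3, 215.5 and 209.8 CPM in the wild-type libraries. The groups did not overlap, but the gap between the nearest libraries was narrow. Its log2 fold change of 0.09 (95% interval -0.01 to 0.20, adjusted p = 0.11) did not pass the test. The call of wis4 depended on the scaling and on 1 library: it passed as higher with cyclic loess (0.19, adjusted p = 0.0043), total counts (0.16, adjusted p = 0.013) and the upper quartile (0.11, adjusted p = 0.047), and without deletion replicate 3 (0.15, adjusted p = 0.025).

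Within a library the ratio of win1 to wis4 does not depend on how libraries are scaled. The log2 ratio of their counts was -0.45, -0.45 and -0.60 in the deletion libraries, against -0.12, -0.07 and -0.07 in the wild-type libraries. It was lower in each deletion library, by 0.41 on average, and the difference stayed between -0.44 and -0.36 when any 1 library was left out. With 3 libraries against 3 an exact two-sided permutation test cannot give less than p = 0.1, which is the value it gave (adjusted p = 0.133 over the 4 ratios tested).

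Transcripts of mcs4, whose product holds the MAP kinase kinase kinases, measured 284.4, 294.2 and 258.7 CPM in the deletion libraries and 322.4, 323.6 and 319.1 CPM in the wild-type libraries. The wild-type libraries were tightly grouped and all above the deletion libraries. Expression of mcs4 fell by 13.2% (log2 fold change -0.20, SE 0.05, adjusted p = 0.0092). With cyclic loess, which removes a trend of fold change with abundance, mcs4 measured -0.08 and was not called (adjusted p = 0.15).

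The MAP kinase kinase gene wis1 showed overlapping groups. It measured 122.9, 129.6 and 147.3 CPM in the deletion libraries, against 161.1, 145.2 and 138.3 CPM in the wild-type libraries. Deletion replicate 3 lay above wild-type replicates 2 and 3, although the same library was the lowest of all 6 for win1, mcs4, atf1 and pcr1. The log2 fold change of wis1 was -0.15 (95% interval -0.33 to 0.02, adjusted p = 0.12), and without deletion replicate 3 it passed as lower (-0.21, adjusted p = 0.048). Its coefficient of variation of 9.49% in the deletion was the largest of the 10 genes, where all tested genes had a median of 5.99%. With any single library left out the value of wis1 lay between -0.21 and -0.06.

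The MAP kinase gene sty1 had the most counts of the 10 genes. It measured 432.6, 402.5 and 403.4 CPM in the deletion libraries, against 468.7, 470.3 and 475.3 CPM in the wild-type libraries. All deletion libraries were below all wild-type libraries. Expression of sty1 fell by 12.4% (log2 fold change -0.19, SE 0.04, adjusted p = 0.0055). With cyclic loess sty1 measured -0.04 and was not called (adjusted p = 0.38), while it remained called as lower when each library was left out in turn. Across the 6045 tested genes the log2 fold change ran weakly with mean CPM (Spearman's rho -0.12, over genes, which are not independent replicates).

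**Figure D2:**
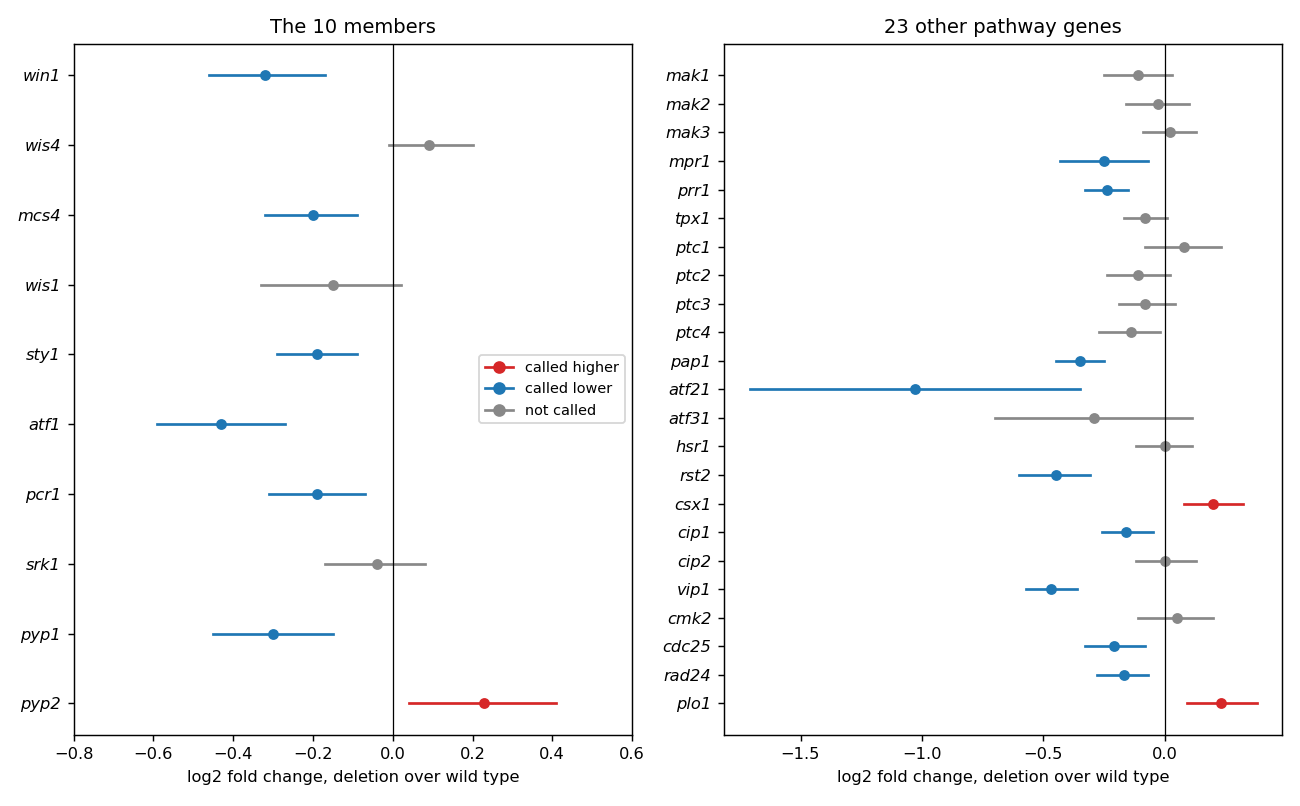
Log2 fold change of the deletion over wild type (x axis) with its 95% interval from the edgeR fit, for the 10 genes (left, in order from the kinase chain to the phosphatases) and for 23 other genes of the pathway (right); colour shows the call at an adjusted p below 0.05. Of the 10 genes, 6 are called lower and only pyp2 is called higher, and all 10 point values lie between -0.43 and 0.23.

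The transcription factor gene atf1 showed the largest change of the 10. It measured 184.1, 181.3 and 165.0 CPM in the deletion libraries, against 246.3, 255.5 and 214.3 CPM in the wild-type libraries. The highest deletion library was well below the lowest wild-type library. Expression of atf1 fell by 25.9% (log2 fold change -0.43, 95% interval -0.59 to -0.27, SE 0.07, adjusted p = 0.0012). In the alternatives run it stayed called, with values from -0.50 to -0.35. Of all tested genes 24.6% had a larger absolute change.

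Its partner pcr1 changed less. It measured 111.6, 110.7 and 101.4 CPM in the deletion libraries, against 123.2, 124.8 and 120.9 CPM in the wild-type libraries. The groups did not overlap, and pcr1 fell by 12.2% (log2 fold change -0.19, SE 0.05, adjusted p = 0.014). That call was lost without deletion replicate 3 (-0.12, adjusted p = 0.053), without wild-type replicate 2 (-0.18, adjusted p = 0.062) and when libraries were scaled by total counts (-0.12, adjusted p = 0.065). The log2 ratio of atf1 to pcr1 counts was 0.72, 0.71 and 0.70 in the deletion libraries, against 1.00, 1.03 and 0.83 in the wild-type libraries. It was lower in each deletion library by 0.24 on average (exact permutation p = 0.1, adjusted p = 0.133), a ratio of raw counts that is not corrected for the length of the transcripts.

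The srk1 gene codes for a kinase that Sty1 activates and that restrains the mitotic inducer Cdc25. It measured 92.1, 95.6 and 92.8 CPM in the deletion libraries, against 100.0, 98.5 and 90.6 CPM in the wild-type libraries. The groups overlapped, and the log2 fold change was -0.04 (95% interval -0.17 to 0.08, adjusted p = 0.53). Its sign was positive with total counts (0.02) and the value was 0.00 without deletion replicate 1. The log2 ratio of srk1 to sty1 counts was -2.23, -2.07 and -2.12 in the deletion libraries, against -2.23, -2.26 and -2.39 in the wild-type libraries. These ratios overlapped (difference 0.15, exact permutation p = 0.2, adjusted p = 0.2 over the 4 ratios).

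The tyrosine phosphatase genes pyp1 and pyp2, whose products both dephosphorylate Sty1, were called in opposite directions. The pyp1 mRNA measured 56.5, 53.7 and 54.1 CPM in the deletion libraries, against 70.4, 70.2 and 61.9 CPM in the wild-type libraries. No library of one group reached those of the other. Expression of pyp1 fell by 18.8% (log2 fold change -0.30, SE 0.07, adjusted p = 0.0055) and was called as lower in each alternative run. Its value moved to -0.46 with cyclic loess.

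Transcription of pyp2 is known to be induced through Atf1, which makes its product part of a feedback loop. The pyp2 mRNA measured 23.1, 21.7 and 22.9 CPM in the deletion libraries, against 19.0, 20.2 and 18.7 CPM in the wild-type libraries. All deletion libraries were above all wild-type libraries. In raw counts they held 502, 442 and 483, against 343, 392 and 353 in wild type, the fewest of the 10 genes in each library. Expression of pyp2 rose 1.17-fold (log2 fold change 0.23, SE 0.08, adjusted p = 0.041). This call was close to the threshold. It was lost without deletion replicate 1 (0.24, adjusted p = 0.070), wild-type replicate 1 (0.22, adjusted p = 0.094), wild-type replicate 2 (0.26, adjusted p = 0.066) or wild-type replicate 3 (0.21, adjusted p = 0.091), and with DESeq2 (0.22, adjusted p = 0.089). With cyclic loess the sign turned (-0.02, adjusted p = 0.89).

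Because pyp1 fell and pyp2 rose, the ratio between them had to differ more than either alone. With cyclic loess pyp2 did not rise (-0.02), so this follows only in fits where it does. The log2 ratio of pyp2 to pyp1 counts was -1.29, -1.31 and -1.24 in the deletion libraries, against -1.89, -1.80 and -1.73 in the wild-type libraries. It was higher in each deletion library, by 0.53 on average (SD 0.04 in the deletion and 0.08 in wild type, n = 3 each). The difference lay between 0.49 and 0.57 when any 1 library was left out. The exact permutation test again gave its smallest possible value (p = 0.1, adjusted p = 0.133). This ratio is free of library scaling, but not of a trend with abundance, since pyp2 is the scarcer transcript.

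**Figure D3:**
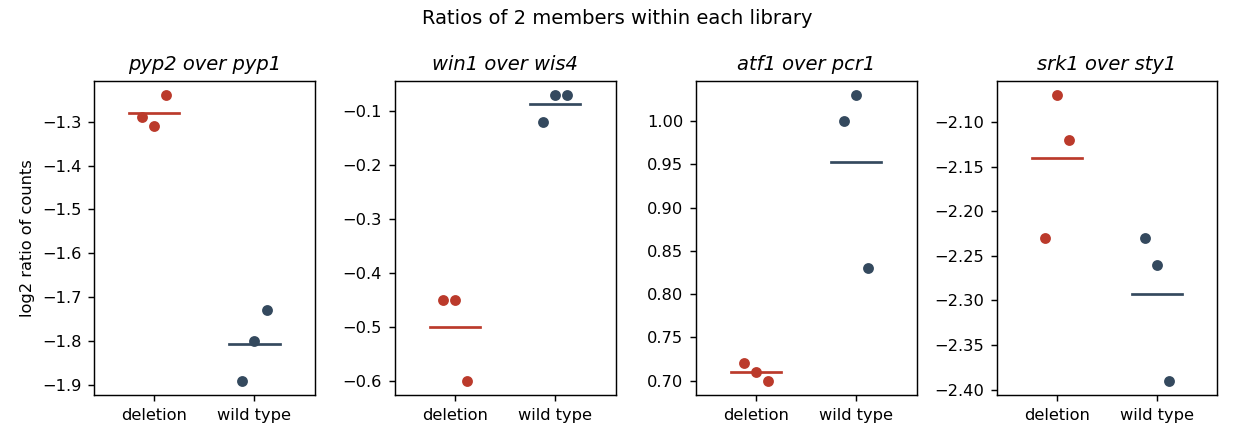
Log2 ratio of the raw counts of 2 genes within each library (y axis, one scale per panel), with the 3 deletion libraries on the left and the 3 wild-type libraries on the right; bars are means. The deletion libraries lie above wild type for pyp2 over pyp1 (-1.31 to -1.24 against -1.89 to -1.73), below it for win1 over wis4 and atf1 over pcr1, and meet wild type at -2.23 for srk1 over sty1.

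Levels of different genes were compared as RPKM, the CPM divided by the length in kilobases of the transcript in the RefSeq annotation of assembly ASM294v3. The order of genes can depend on the length used. Of the annotated transcript, 516 of 1459 bases are coding in pcr1 and 1569 of 2050 in mcs4. Levels per coding length were not compared. The kinase gene sty1 was highest, at 249 ± 10.3 RPKM in the deletion and 284 ± 2.08 RPKM in wild type (SD, n = 3 each), above 91.9% of tested genes in the deletion and 92.0% in wild type. The response regulator gene mcs4 followed, at 136 ± 8.95 RPKM in the deletion and 157 ± 1.14 RPKM in wild type. The atf1 level was 63.4 ± 3.7 RPKM in the deletion and 85.5 ± 7.76 RPKM in wild type, and the pcr1 level was 74.0 ± 3.87 RPKM in the deletion and 84.3 ± 1.35 RPKM in wild type. In the deletion pcr1 stood above atf1 in all libraries, whereas in wild type these libraries overlapped. The MAP kinase kinase gene wis1 had 46.4 ± 4.4 RPKM in the deletion and 51.6 ± 4.06 RPKM in wild type, and wis4 had 48.4 ± 1.88 RPKM in the deletion and 45.4 ± 0.83 RPKM in wild type. The libraries of these genes overlapped in the deletion and did not in wild type. Below them win1 had 32.2 ± 2.98 RPKM in the deletion and 40.1 ± 0.535 RPKM in wild type. The phosphatase gene pyp1 had 29.6 ± 0.821 RPKM in the deletion and 36.5 ± 2.63 RPKM in wild type, and overlapped with win1 in the deletion. The srk1 level was 28.3 ± 0.552 RPKM in the deletion and 29.1 ± 1.53 RPKM in wild type. The inducible phosphatase gene pyp2 was lowest at 8.87 ± 0.312 RPKM in the deletion and 7.57 ± 0.313 RPKM in wild type, above 21.4% of tested genes in the deletion and 20.3% in wild type. Of the 10 transcripts that of sty1 was thus the most and that of pyp2 the least abundant in both strains.

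**Figure D4:**
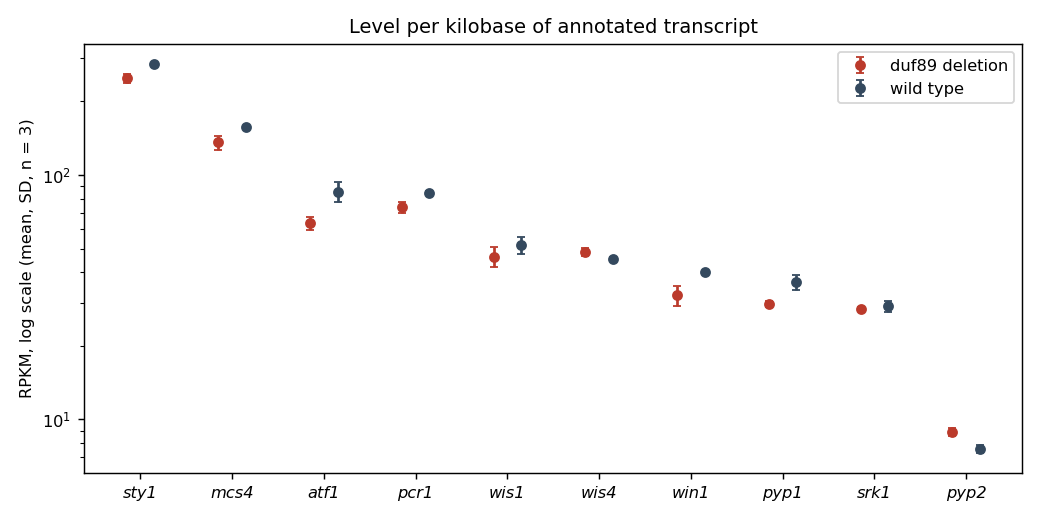
Mean RPKM with SD (y axis, log scale, n = 3 libraries) of the 10 genes, ordered by their wild-type level, with the deletion left of wild type for each gene. The levels run from 249 RPKM (deletion) and 284 RPKM (wild type) for sty1 to 8.87 RPKM (deletion) and 7.57 RPKM (wild type) for pyp2, a wider range than that between strains for any of the 10 genes.

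The authors' deposited table, a DESeq2 comparison of the same strains, gives log2 fold changes for the 10 genes that differ from those of the refit by at most 0.02. Its values are -0.45 for atf1, -0.34 for win1, -0.32 for pyp1, -0.22 for mcs4, -0.21 for sty1 and -0.21 for pcr1. For pyp2 the authors' deposited table gives 0.21 with an adjusted p of 0.076, so pyp2 is not past 0.05 there. It lists wis1 at -0.17, wis4 at 0.07 and srk1 at -0.06, each with an adjusted p above 0.05.

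A further 23 genes of the pathway were taken from lists of its sensors and relay proteins, type 2C phosphatases, transcription and RNA-binding factors, and kinase and cell cycle effectors. Of these 2 rose, 9 fell and 12 did not pass the test, beside 28.8% and 24.6% of all tested genes, with a median log2 fold change of -0.11. Among the 6 sensors and relay genes 2 fell. The response regulator gene prr1, a transcription factor of the oxidative stress response, averaged 366.1 ± 6.02 CPM in the deletion and 432.2 ± 11.5 CPM in wild type (log2 fold change -0.24, SE 0.04, adjusted p = 0.0016). With cyclic loess prr1 was not called (-0.10, adjusted p = 0.078). The phosphotransfer gene mpr1, which links the histidine kinases to Mcs4, averaged 120.5 ± 9.88 CPM in the deletion and 143.4 ± 14.4 CPM in wild type (-0.25, adjusted p = 0.026). Its groups overlapped, and its call was lost without deletion replicate 1 (-0.16, adjusted p = 0.18), deletion replicate 3 (-0.24, adjusted p = 0.085), wild-type replicate 1 (-0.18, adjusted p = 0.079) or wild-type replicate 2 (-0.25, adjusted p = 0.077). Scaling by total counts also ended it (-0.18, adjusted p = 0.10). The histidine kinase genes mak1, mak2 and mak3 did not pass the test, with 95% intervals of -0.25 to 0.03, -0.16 to 0.10 and -0.09 to 0.13. None of the type 2C phosphatase genes ptc1, ptc2, ptc3 and ptc4, which remove phosphate from the Sty1 activation loop or act in related stress responses, passed the test in edgeR, with log2 fold changes from -0.14 to 0.08. Of these ptc4 had the lowest adjusted p (0.055) and an unadjusted p of 0.03, the only one of the 4 under 0.05, and DESeq2 and limma-voom called 0 of the 4.

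Of 9 transcription and RNA-binding factor genes 5 fell and 1 rose, where 53.3% of all tested genes were called. The RNA-binding protein gene vip1 averaged 594.7 ± 19.3 CPM in the deletion and 822.3 ± 35.1 CPM in wild type (log2 fold change -0.47, SE 0.05, adjusted p = 9.7e-05). The gene pap1, for the AP-1-like factor of the oxidative stress response, averaged 246.0 ± 8.09 CPM in the deletion and 313.2 ± 6.74 CPM in wild type (-0.35, SE 0.04, adjusted p = 3.6e-04). The zinc finger factor gene rst2 averaged 217.2 ± 20.3 CPM in the deletion and 297.3 ± 3.42 CPM in wild type (-0.45, SE 0.06, adjusted p = 6.2e-04). These 3 were called as lower in every alternative run. The Csx1 protein binds and stabilises atf1 mRNA during oxidative stress, and its gene csx1 went the other way from atf1. It averaged 141.5 ± 4.1 CPM in the deletion and 123.4 ± 7 CPM in wild type (0.20, SE 0.05, adjusted p = 0.013), a call lost without wild-type replicate 2 (0.15, adjusted p = 0.063).

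The other falls in that list, chosen for naming with their values in view, were cip1 (-0.16, adjusted p = 0.017), for a protein that binds Csx1, and the bZIP gene atf21 (-1.03, SE 0.30, adjusted p = 0.018). The atf21 gene had 19, 20 and 12 counts in the deletion libraries, against 38, 31 and 24 counts in the wild-type libraries, so its estimate rests on few reads. It was lost without deletion replicate 3 (-0.81, adjusted p = 0.074) or wild-type replicate 1 (-0.82, adjusted p = 0.059), with DESeq2 (-1.04, adjusted p = 0.051) and with cyclic loess (-0.71, adjusted p = 0.076). The cip1 call was lost when any library but wild-type replicate 3 was left out (-0.16 to -0.12, adjusted p up to 0.14), with total counts (-0.09, adjusted p = 0.16) and with cyclic loess (-0.12, adjusted p = 0.053).

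Among the 4 kinase and cell cycle effector genes, cdc25, the mitotic inducer, averaged 147.0 ± 8.55 CPM in the deletion and 169.5 ± 5.23 CPM in wild type (log2 fold change -0.21, SE 0.05, adjusted p = 0.011). The 14-3-3 gene rad24 fell (-0.17, adjusted p = 0.0093), but not without deletion replicate 2 (-0.12, adjusted p = 0.051) and not with cyclic loess, where the sign turned (0.01). The polo kinase gene plo1 rose (0.23, SE 0.07, adjusted p = 0.014), but not without wild-type replicate 2 (0.21, adjusted p = 0.067), with GC-corrected offsets (0.14, adjusted p = 0.081) or with cyclic loess (0.01, adjusted p = 0.92). The calmodulin-dependent kinase gene cmk2 did not pass the test (0.05, 95% interval -0.11 to 0.20).

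Of 10 stress genes that depend on Atf1 and Sty1 for their induction, 7 fell and 0 rose in the edgeR fit, beside 24.6% lower and 28.8% higher among all tested genes, with a median log2 fold change of -0.43. The trehalase gene ntp1 averaged 126.5 ± 10.7 CPM in the deletion and 166.2 ± 14.2 CPM in wild type (-0.39, SE 0.08, adjusted p = 0.0028). Larger falls were those of the heat shock protein gene hsp9 (-1.68), the catalase gene ctt1 (-0.81) and the trehalose synthase gene tps1 (-0.81). The 3 that did not pass, chosen for naming with their values in view, were the glycerol-3-phosphate dehydrogenase gene gpd1 (0.09, 95% interval -0.06 to 0.23), the fructose-bisphosphatase gene fbp1 (0.29, -0.03 to 0.61) and the cation-transporting P-type ATPase gene cta3 (-0.05, -0.43 to 0.32). None of the 10 was higher at an unadjusted p under 0.05, and 0 were called higher by DESeq2 or limma-voom. The fall of atf1 mRNA and the falls of these genes were measured in the same libraries, and a link between them was not tested. The list was also chosen with earlier results of these data known, so its count beside all tested genes is no independent comparison.

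Other MAP kinase cascades were set beside the Sty1 chain. In the cell integrity cascade, whose MAP kinase Pmk1 is also a target of Pyp1 and Pyp2, 2 of 6 genes rose and 2 fell, beside 28.8% higher and 24.6% lower among all tested genes. The MAP kinase kinase kinase gene mkh1 averaged 78.9 ± 0.686 CPM in the deletion and 58.5 ± 1.27 CPM in wild type (log2 fold change 0.43, SE 0.05, adjusted p = 3.5e-04). The MAP kinase kinase gene pek1 averaged 104.8 ± 1.12 CPM in the deletion and 85.3 ± 6.26 CPM in wild type (0.30, SE 0.06, adjusted p = 0.0032). The MAP kinase gene pmk1 fell (-0.22, adjusted p = 0.015), but not without wild-type replicate 2 (-0.19, adjusted p = 0.078), and the phosphatase gene pmp1 fell (-0.32, adjusted p = 0.0076). The protein kinase C gene pck2, upstream of mkh1, did not pass the test (0.08, adjusted p = 0.22). Of 4 genes of the pheromone cascade ste4 rose (0.56, SE 0.14, adjusted p = 0.0074), and byr2, byr1 and spk1, for its kinases, did not pass the test, with log2 fold changes of 0.10, 0.18 and -0.29.

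In the RefSeq annotation each of the 10 genes is overlapped on the opposite strand by at least 1 other feature. Of 19 overlapping features, 16 are long non-coding RNAs, and 5 features were in the count table. Whether reads were counted by strand is not stated in the sources used, and counts of overlapping features are therefore uncertain. The gene sty1-antisense-1 (SPNCRNA.622) overlaps sty1 over 1362 bases and had 501, 477 and 618 counts in the deletion libraries, against 517, 473 and 529 counts in the wild-type libraries. These overlapped (log2 fold change -0.09, SE 0.11, adjusted p = 0.51). It averaged 25.3 CPM in the deletion and 27.0 CPM in wild type. The value of sty1-antisense-1 was 0.00 without deletion replicate 1, and it passed as lower with cyclic loess (-0.36, adjusted p = 0.017).

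The largest change next to a gene of the pathway was at the 5′ end of wis4. The feature SPAC9G1.14, which the deposited table calls dubious, overlaps the start of wis4 by 190 bases on the opposite strand in RefSeq. It had 9, 10 and 10 counts in the deletion libraries, against 73, 84 and 78 counts in the wild-type libraries. In CPM these were 0.460 ± 0.0398 in the deletion and 4.16 ± 0.147 in wild type (SD, n = 3 each). SPAC9G1.14 fell to 0.112 of its wild-type level (log2 fold change -3.16, SE 0.22, adjusted p = 1.1e-05), and leaving out any library gave -3.18 to -3.06. At the other end of wis4 the ribosomal protein gene rpl3001 overlaps it by 97 bases, and fell (-0.23, SE 0.04, adjusted p = 0.0016), though not with cyclic loess (-0.07, adjusted p = 0.21).

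At the 3′ end of pyp2, the opposite-strand gene SPAC19D5.02c, which the deposited table names pex22 and RefSeq names emc10, overlaps it by 48 bases and rose (0.26, SE 0.08, adjusted p = 0.022). This call was lost without wild-type replicate 2 (0.27, adjusted p = 0.064), with GC-corrected offsets (0.17, adjusted p = 0.052) and with cyclic loess (0.17, adjusted p = 0.082). Upstream of pyp2 on the same strand lies SPNCRNA.1059, annotated in the deposited table as a possible alternative UTR. It had 85, 111 and 101 counts in the deletion libraries, against 56, 56 and 68 counts in the wild-type libraries, and rose (0.56, SE 0.19, adjusted p = 0.030), as pyp2 did. That call was lost without deletion replicate 2 (0.48, adjusted p = 0.099), deletion replicate 3 (0.57, adjusted p = 0.071), wild-type replicate 1 (0.54, adjusted p = 0.057) or wild-type replicate 2 (0.49, adjusted p = 0.11), and with DESeq2 (0.56, adjusted p = 0.062). Upstream of atf1, SPNCRNA.1441 on the same strand overlaps its start by 38 bases and did not pass the test (-0.48, adjusted p = 0.18), with 24, 26 and 14 counts in the deletion libraries and 24, 27 and 29 counts in the wild-type libraries.

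Of the 20 nearest counted features that do not overlap the 10 genes, 18 were tested, 5 rose and 7 fell, beside 28.8% higher and 24.6% lower among all tested genes. Those given here were chosen with their values in view. The largest fall was that of aca1, a divergent neighbour of pcr1 that codes for an acetyltransferase of azetidine-2-carboxylic acid. The aca1 mRNA averaged 48.4 ± 1.93 CPM in the deletion and 118.8 ± 3.1 CPM in wild type (log2 fold change -1.30, SE 0.06, adjusted p = 5.2e-07), beside -0.19 for pcr1. The oligopeptide transporter gene isp4 downstream of atf1 rose (0.67, SE 0.11). The gene SPCC1322.09 downstream of srk1, for a Golgi protein, rose (0.65, SE 0.11), as did etd1 upstream of win1, for a protein that binds the GTPase Spg1 (0.62, SE 0.11). The genes beside them measured -0.43 for atf1, -0.04 for srk1 (not called) and -0.32 for win1.

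**Figure D5:**
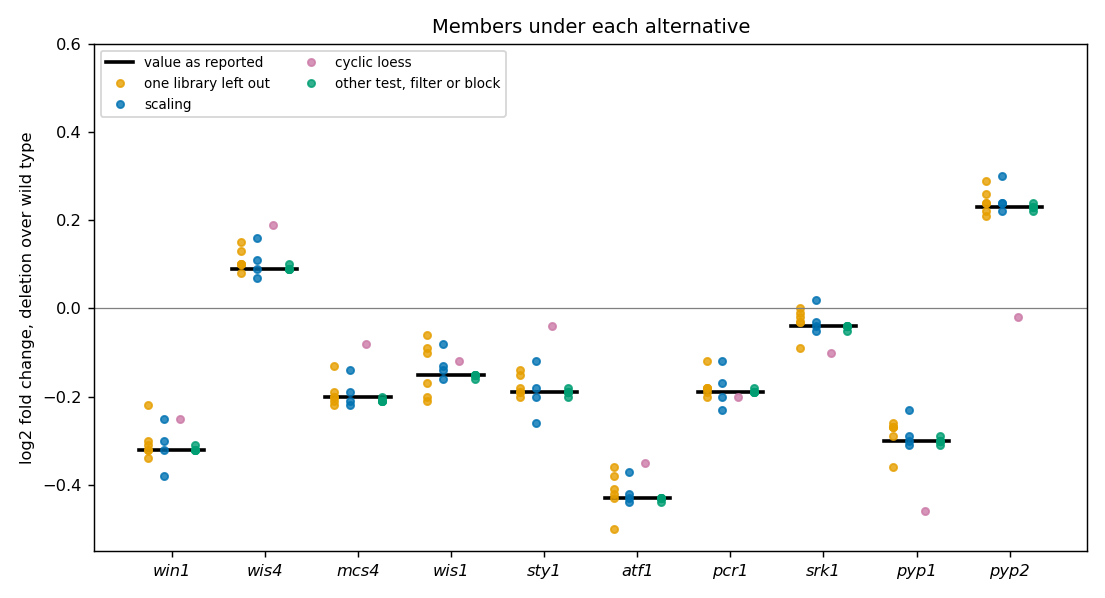
Log2 fold change of the deletion over wild type (y axis) of the 10 genes as reported (black bars) and under each alternative (points, coloured by kind: 1 library left out, another scaling, cyclic loess, another test, filter or block). The values of atf1, win1 and pyp1 stay at or below -0.22 throughout, whereas with cyclic loess sty1 and mcs4 lie nearer to 0 and pyp2 lies at -0.02.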

How the data were processed

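The deposited counts are integers, 1 per gene and library. Build ASM294v2 and the tools DESeq, DESeq2, HTSeq 0.10.0, SAMtools and HISAT2 2.1.0 are listed in the submitters' processing notes without their roles. A second deposited table holds the authors' log2 fold changes, standard errors, p-values, a test score (the Wald statistic) and average signal (mean normalized counts), per the file headers. An identifier on 2 lines of the count table was summed (6987 lines, 6986 genes). RefSeq ASM294v3 matched 98.0% of genes and gave transcript lengths, GC content and overlaps only; its build differs from that of the files, and no coordinates are given.

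Counts were tested with edgeR 4.0.16 in R 4.3.3 (genes kept by filterByExpr at a minimum count of 10, library totals scaled by TMM, a quasi-likelihood F test of group alone, and Benjamini-Hochberg adjustment over 6045 genes with calls below 0.05). The SE is the log2 fold change over the square root of F, and intervals use the t distribution of the fit. Ratios of 4 pairs of genes used an exact two-sided permutation test over libraries. On simulated data with 200 changed genes, 44% of those changed 1.25-fold and 72.3% of those changed 1.5-fold were called, as were 8 of 5845 unchanged genes. Libraries of a group were not duplicates (chi-square per degree of freedom 5.95 to 15.9). Alternatives were DESeq2 1.42.0, limma-voom 3.58.1, other scalings, offsets and filters, a threshold of 0.01, fits without each library, and a replicate block. The 10 genes and the lists were chosen with earlier results of these data known. Named genes are the 10, up to 4 called members of each list by smallest adjusted p, and counted features that overlap the 10. Figures were drawn with matplotlib 3.10.9. The list of mating type markers placed the receptor genes mam2 and map3 under the wrong cell type; the text gives each by the cell type that makes it.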

Additional observations from a re-analysis of the deposited data

How the results depend on the processing

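The median log2 fold change of the 10 genes stayed negative in all alternatives run. It was -0.11 with cyclic loess, -0.12 with total counts only, and -0.20 to -0.14 when 1 library was left out. The count of falls among the 10 (6) was 4 with cyclic loess, 5 with total counts and at an adjusted p below 0.01, and 5 or 6 with 1 library left out. The count of rises (1) was 0 with DESeq2 and at an adjusted p below 0.01, 2 with total counts and with the upper quartile, and 0 to 2 with 1 library left out. Among the 23 other pathway genes the rises (2) were 1 with GC-corrected offsets and with cyclic loess, and 0 at an adjusted p below 0.01. They were 0 to 2 with 1 library left out, where 0 came without wild-type replicate 2. The falls (9) were 12 with GC-corrected offsets, 6 with cyclic loess, 7 with total counts and 5 at an adjusted p below 0.01. With 1 library left out the falls numbered 6 to 9. Over all genes 1152 were higher and 932 lower at an adjusted p below 0.01. The share of calls that were higher was 53.9% as reported, 66.4% with total counts, 46.5% with GC-corrected offsets and 47.4% with cyclic loess. Signs turned for pyp2 (-0.02) and rad24 (0.01) with cyclic loess and for srk1 with total counts (0.02), and with 1 library left out srk1 ran from -0.09 to 0.00 and sty1-antisense-1 from -0.19 to 0.00; the cause was not tested.

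Libraries of the groups share replicate numbers in their labels. Deviations from the group means of same-numbered libraries correlated at -0.129, -0.167 and 0.257. Those of differently numbered libraries correlated at -0.282 to 0.338. With 3 libraries per group these values cannot decide whether the numbers pair the libraries. With the replicate block 1900 genes were higher and 1633 lower, and of the 10 genes 1 rose and 6 fell, with pyp2 at 0.23 (adjusted p = 0.033). Of simulated 1.25-fold changes 44% were called, in data where 200 genes were changed. In the deposited data 53.3% of the tested genes were called, and the adjusted p depends on how many genes differ. The simulated share therefore cannot give how often a change of this size was missed here, and what a missed call can show was not tested.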
